A study of Mus musculus with 9 samples.

Results

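The 10 genes described here govern how the heart takes up fatty acids and stores them as triglyceride: Cd36, Slc27a1, Lpl, Fabp3, Fabp4, Dgat1, Dgat2, Plin5, Pnpla2 and Lipe. They were taken by gene symbol from a table of 16951 genes, in which each had 1 row. All 10 reached 1 FPKM (sequenced fragments scaled for transcript length and for the size of the library) in at least 3 libraries and were therefore among the 11902 genes tested. Heart tissue of C57BL/6 mice was profiled by mRNA sequencing in 3 groups of 3 libraries. The mice received angiotensin II together with prostaglandin E1 (AngII+PGE1), angiotensin II alone (AngII), or saline. Angiotensin II is a pressor peptide that enlarges and scars the heart, and prostaglandin E1 is a prostanoid that acts on EP receptors. The title of the series concerns a lessening of AngII-induced hypertrophy by PGE1. The labels at hand state no dose, route, duration, age or sex. The labels do not say whether each library is a different animal. The p-values therefore rest on variation from library to library, some of which may be technical.

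The heart draws most of its energy from fatty acids. Lipoprotein lipase frees them from circulating lipoproteins at the capillary wall, membrane proteins such as CD36 and FATP1 bring them into the cell, and cytosolic fatty acid binding proteins carry them onward. Fatty acids that are not burned at once are esterified to triglyceride, whose last step is catalysed by the DGAT enzymes, and are kept in lipid droplets. Lipases at the droplet surface release them again, and perilipins control that access.

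The hearts carried the transcripts that define cardiac muscle. The summed level of 8 cardiomyocyte markers was 68223 to 85599 FPKM in AngII+PGE1 libraries, 63455 to 88285 FPKM in AngII libraries and 62886 to 92030 FPKM in saline libraries. None of the 8 passed by limma in any comparison. For AngII vs saline Ryr2, Pln and Actc1 lay below all saline libraries, as 15.8% of all genes did. Their log2 differences were -0.80, -0.68 and -0.62 (limma adjusted p = 0.0946, 0.0712 and 0.166). Of the 8, 5 had a negative difference and 3 a positive one, Tnnt2 (0.80, limma adjusted p = 0.138), Myl2 (0.42) and Tnni3 (0.16). In AngII+PGE1 hearts Pln lay above all AngII libraries (0.74, limma adjusted p = 0.0655), as 16.3% of all genes did. The part of the cardiomyocyte markers in the results below was not tested. Adipocyte transcripts were almost absent: Adipoq, the adiponectin gene, was at most 0.11 FPKM, and the 6 adipocyte markers in the table summed to at most 2.27 FPKM in any library. The number of genes at 1 FPKM or more was 11049 to 11970 per library. The libraries did not all lie with their group. On the first principal component of all genes tested, which held 62.3% of the variance, AngII+PGE1 1 and saline 2 lay on the side of the AngII libraries, with scores of 12.4 and 16.3 beside 33.4 to 41.1 for the AngII libraries. The scores of the other AngII+PGE1 and saline libraries were between -38.6 and -26.4. AngII+PGE1 1 and saline 2 both carry the number 2 in their column names, as does AngII 2, and no label explains that number. Results are given with and without the pair that stood apart from their groups, AngII+PGE1 1 and saline 2.

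In short, the fatty acid transporter gene Cd36 and the lipid droplet gene Plin5 fell in AngII hearts relative to saline hearts, and the other 8 genes did not pass the test, a limma adjusted p under 0.05 that 3.11% of all genes passed. With each of the 9 libraries left out in turn, the calls of Cd36 and Plin5 each held in 2 of 9 settings. In AngII+PGE1 hearts relative to AngII hearts no gene of the 10 passed limma's test, as against 0.403% of all genes, and 4 were higher and none lower at an unadjusted p under 0.05, which 13.1% of all genes passed as higher and 20.5% as lower. The mean levels of Cd36, Plin5, Dgat2 and Pnpla2 were higher in AngII+PGE1 hearts than in AngII hearts with limma adjusted p-values between 0.0609 and 0.0863. No gene of the 10 passed by limma between AngII+PGE1 and saline hearts, adjusted or not, where 0.0168% of all genes passed the adjusted threshold and 4.23% the unadjusted one.

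**Figure D1:**
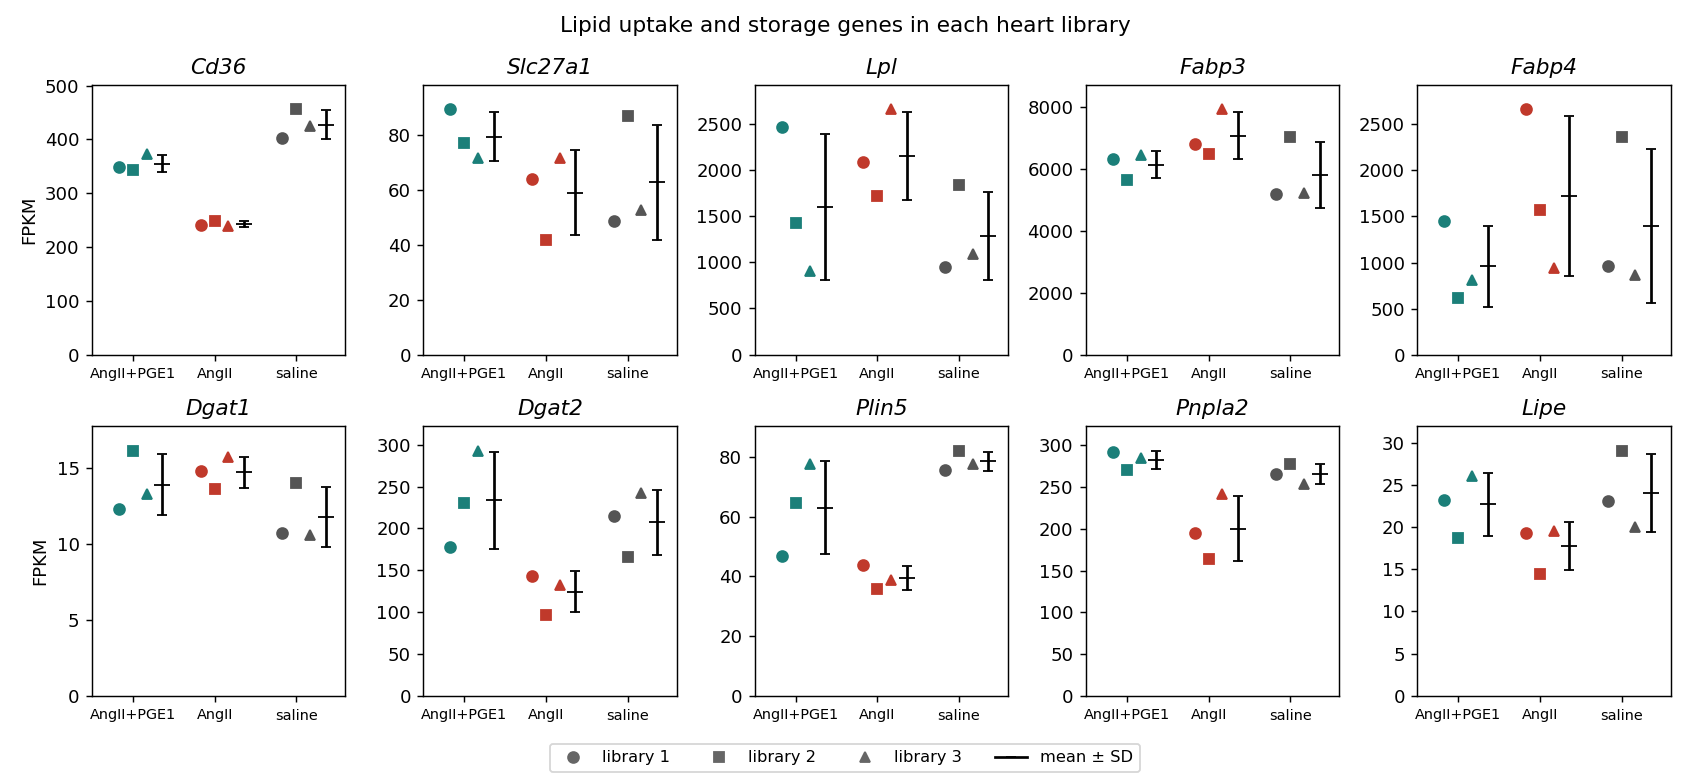
FPKM of the 10 genes in each of the 9 libraries, with a panel per gene, groups along the horizontal axis, a marker shape per library number and the mean ± SD (n = 3) beside each group. Cd36 in AngII libraries sits between 239 and 248 FPKM, under every AngII+PGE1 and saline library, whereas Fabp4 and Lpl spread widely within each group.

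By level per length, Fabp3 stood first in every group, with a mean over the 9 libraries of 6342 FPKM that ranked number 10 among all genes. Lpl and Fabp4 came next, at means of 1679 and 1361 FPKM over the 9 libraries, and their ranges overlapped in all 3 groups. Cd36, Pnpla2 and Dgat2 followed in that order in each group. The ranges of Cd36 and Pnpla2 overlapped in AngII libraries only, and those of Pnpla2 and Dgat2 in AngII+PGE1 libraries only. Slc27a1 and Plin5 stood next, with overlapping ranges in every group, and Plin5 was the higher of the pair by mean in saline libraries. Lipe and Dgat1 had the lowest levels in all groups, and their ranges overlapped in AngII libraries only. Summed, the 10 genes made up 1.48% to 1.86% of all FPKM per library. The share was larger in the AngII libraries, AngII+PGE1 1 and saline 2 (1.695% to 1.86%) than in the remaining libraries (1.48% to 1.65%). It thus split the libraries as the first principal component did, and not by group. The cause of this split was not tested.

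The first genes are those of uptake across the membrane. Cd36 encodes the scavenger receptor and translocase that brings long-chain fatty acids into cardiomyocytes and capillary endothelium. Its level was 349, 344 and 373 FPKM in AngII+PGE1 libraries, 240.4, 248 and 239 FPKM in AngII libraries and 402, 456 and 425 FPKM in saline libraries. The 3 groups did not overlap, and the AngII libraries were the lowest and close to each other.

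Cd36 fell by 43.3% in AngII hearts, to a mean of 243 ± 4.86 FPKM against 428 ± 26.8 FPKM in saline hearts (SD, n = 3 each). On the log2(FPKM + 1) scale, which all differences below use, the difference was -0.81 (SE 0.14, 95% interval -1.12 to -0.50, limma adjusted p = 0.0392). In AngII+PGE1 hearts the mean was 355 ± 15.4 FPKM (SD, n = 3). The log2 difference was 0.55 from AngII hearts (SE 0.14, limma adjusted p = 0.0609) and -0.27 from saline hearts (SE 0.14, limma adjusted p = 0.9999), and neither difference passed. In bulk tissue, fewer cells of a type and less RNA per cell cannot be told apart. Cd36 is also an endothelial gene, and the summed level of 8 endothelial markers was 260.3 to 352 FPKM in AngII+PGE1 libraries, 282 to 445 FPKM in AngII libraries and 422 to 511 FPKM in saline libraries. Of these markers Cldn5 fell in AngII+PGE1 hearts relative to AngII hearts (log2 difference -1.04, limma adjusted p = 0.0449) and to saline hearts (-1.45, limma adjusted p = 0.0460). For AngII+PGE1 vs AngII 5 of the 8 had a negative log2 difference and 3 a positive one, Kdr (0.58), Tek (0.10) and Pecam1 (0.03). For AngII+PGE1 vs saline all 8 were negative, 5 of them at an unadjusted p under 0.05, beside 3.12% lower of all genes. The AngII+PGE1 libraries of 5 markers lay below all saline libraries, as those of 7.89% of all genes did. None passed by limma between AngII and saline hearts, with 4 lower at an unadjusted p under 0.05, beside 18.1% of all genes. Those 4 were Kdr (-1.45, limma adjusted p = 0.0513), Cdh5 (-0.77), Tek (-0.52) and Cldn5 (-0.40). Of the 8, 7 had a negative difference there and Egfl7 a positive one (0.67). With single libraries left out, Cldn5 passed in 3 of 9 settings against AngII hearts (limma adjusted p between 0.0152 and 0.182) and in 2 of 9 against saline hearts (between 0.0249 and 0.4005). Both calls passed without AngII 3 and without saline 2, and the call against AngII hearts also without AngII+PGE1 1. The part of the endothelial markers in the Cd36 result was not tested.

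Saline 2 lay near the AngII libraries on the first component, but not for Cd36: at 456 FPKM it was the highest of all 9 libraries. Leaving out each library in turn kept the AngII difference of Cd36 between -0.86 and -0.77. Its adjusted p ranged from 0.00581 to 0.204 and passed in 2 of these 9 settings, without saline 2 and without AngII+PGE1 1. The number of genes called in the whole table moved with it, between 0 and 4512 in these settings. Without saline 2 and AngII+PGE1 1 together the difference was -0.77 (limma adjusted p = 0.00138).

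Slc27a1 encodes FATP1, a fatty acid transport protein that also activates fatty acids to acyl-CoA. It was at 89.2, 77.0 and 71.7 FPKM in AngII+PGE1 libraries, 64.0, 41.6 and 71.5 FPKM in AngII libraries and 48.8, 86.7 and 52.6 FPKM in saline libraries. The AngII+PGE1 libraries lay just above the AngII libraries, by 71.7 against 71.5 FPKM at the closest, and both groups overlapped with saline. It did not pass between AngII+PGE1 and AngII hearts (log2 difference 0.45, SE 0.26, limma adjusted p = 0.229). Between AngII and saline hearts its difference was -0.08 with a 95% interval of -0.65 to 0.50, and 0.18 without saline 2.

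Lpl encodes lipoprotein lipase. Its level was 2464, 1423 and 910 FPKM in AngII+PGE1 libraries, 2082, 1717 and 2656 FPKM in AngII libraries and 944, 1834 and 1085 FPKM in saline libraries. AngII+PGE1 1 and saline 2 were the highest of their groups and lay within the range of the AngII libraries. Lpl was 67.1% higher by mean in AngII than in saline hearts without passing (log2 difference 0.78, SE 0.37, limma adjusted p = 0.161). It was lower by mean in AngII+PGE1 than in AngII hearts, also without passing (-0.52, SE 0.37, limma adjusted p = 0.327). Without saline 2 and AngII+PGE1 1 together both differences grew and passed, to -0.90 for AngII+PGE1 against AngII (limma adjusted p = 0.0171) and 1.06 for AngII against saline (limma adjusted p = 0.00729). Against saline the difference of AngII+PGE1 hearts was 0.25 (95% interval -0.57 to 1.08), and -0.12 without AngII+PGE1 1.

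Lpl and Cd36 lay on opposite sides of saline in AngII hearts, although only Cd36 passed. The ratio of Lpl to Cd36 within a library, which a scaling of the library leaves unchanged, was 7.07, 4.14 and 2.44 in AngII+PGE1 libraries, 8.66, 6.92 and 11.1 in AngII libraries and 2.35, 4.02 and 2.55 in saline libraries. The AngII libraries lay above all saline libraries, by 1.59 in the mean of the log2 ratio (exact permutation test, two-sided, p = 0.1, the smallest that 3 against 3 libraries allow; 0.4 adjusted over the 12 ratio comparisons). AngII+PGE1 1 lay within the AngII range.

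The cytosolic carriers come next. Fabp3 encodes the heart-type fatty acid binding protein. Its level was 6323, 5631 and 6466 FPKM in AngII+PGE1 libraries, 6795, 6484 and 7924 FPKM in AngII libraries and 5188, 7046 and 5219 FPKM in saline libraries. It varied least of the 10 genes together with Dgat1, with a highest library 1.53 times the lowest for both. The AngII+PGE1 libraries lay below the AngII libraries, but the difference did not pass (-0.20, SE 0.21, limma adjusted p = 0.513) and was 0.05 with quantile normalization. AngII hearts were 0.29 above saline hearts (SE 0.21, limma adjusted p = 0.336), and 0.03 below them with quantile normalization (log2 difference -0.03).

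Fabp4 encodes the fatty acid binding protein of adipocytes, capillary endothelium and macrophages. It was at 1454, 617 and 810 FPKM in AngII+PGE1 libraries, 2662, 1567 and 943 FPKM in AngII libraries and 966, 2365 and 869 FPKM in saline libraries. Its highest library was 4.31 times its lowest, the widest span of the 10 genes, and the groups overlapped throughout. None of its comparisons passed, and the 95% interval of the AngII difference from saline ran from -0.74 to 1.40. The 8 macrophage markers summed to 337 to 505 FPKM in AngII+PGE1 libraries, 429 to 634 FPKM in AngII libraries and 356 to 555 FPKM in saline libraries, and saline 2, the second highest library for Fabp4, was the lowest saline library at 356 FPKM. Endothelial markers were highest in saline 2, at 511 FPKM. They were at 445 FPKM in AngII 1 and 453 FPKM in saline 1, where Fabp4 was at 2662 and 966 FPKM. The defining adipocyte markers were at or near 0 in all libraries. The part of any of these cell types in the spread of Fabp4 was not tested. With saline 2 and AngII+PGE1 1 both left out, Fabp4 was lower in AngII+PGE1 than in AngII hearts (log2 difference -1.16, limma adjusted p = 0.0313).

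**Figure D2:**
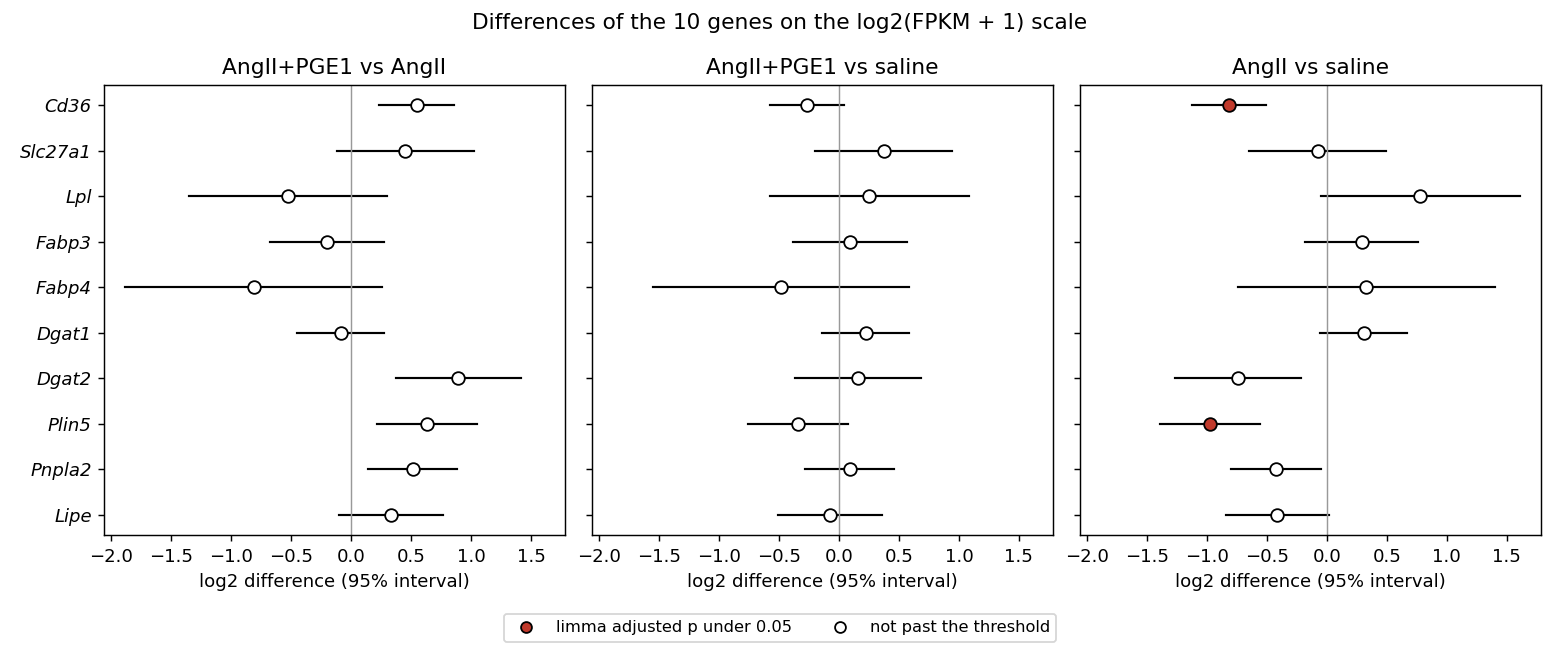
Log2 differences of the 10 genes with 95% intervals from the limma model, on the log2(FPKM + 1) scale, in a panel per comparison. Filled points passed an adjusted p of 0.05 over all genes, which in these panels were Cd36 and Plin5 for AngII vs saline.

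The enzymes that complete triglyceride follow. Dgat1 and Dgat2 encode unrelated proteins that both join the last fatty acid to diacylglycerol. Dgat2 was the more abundant per length, at 177, 230.5 and 293 FPKM in AngII+PGE1 libraries, 144, 96.6 and 133 FPKM in AngII libraries and 215, 165 and 242 FPKM in saline libraries. The AngII libraries were the lowest and overlapped with neither other group. The AngII mean was 40.1% below saline without passing (log2 difference -0.74, SE 0.24, limma adjusted p = 0.0781). The AngII+PGE1 mean was 1.88 times the AngII mean, also without passing (0.90, SE 0.24, limma adjusted p = 0.0635). Without saline 2 both passed, with limma adjusted p-values of 0.0262 for AngII+PGE1 vs AngII and 0.0196 for AngII vs saline. Without AngII+PGE1 1 they were 0.0194 and 0.0495 in the same order. AngII+PGE1 hearts differed from saline hearts by 0.16, with a 95% interval of -0.37 to 0.68.

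Dgat1 was at 12.3, 16.2 and 13.3 FPKM in AngII+PGE1 libraries, 14.9, 13.7 and 15.7 FPKM in AngII libraries and 10.8, 14.1 and 10.6 FPKM in saline libraries. The groups overlapped and no comparison passed. Without saline 2 and AngII+PGE1 1 together it was 0.43 higher in AngII than in saline hearts (limma adjusted p = 0.0272), while Dgat2 was 0.89 lower (log2 difference -0.89, limma adjusted p = 0.00581). The ratio of Dgat2 to Dgat1 was 14.4, 14.3 and 22.0 in AngII+PGE1 libraries, 9.68, 7.06 and 8.43 in AngII libraries and 20.01, 11.8 and 22.8 in saline libraries. All AngII libraries lay below every library of both other groups, and the mean log2 ratio differed by 0.99 between AngII+PGE1 and AngII libraries and by -1.07 between AngII and saline libraries. Each comparison had the smallest exact permutation p that the design allows, 0.1 (two-sided; 0.4 adjusted over the 12 ratio comparisons).

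**Figure D3:**
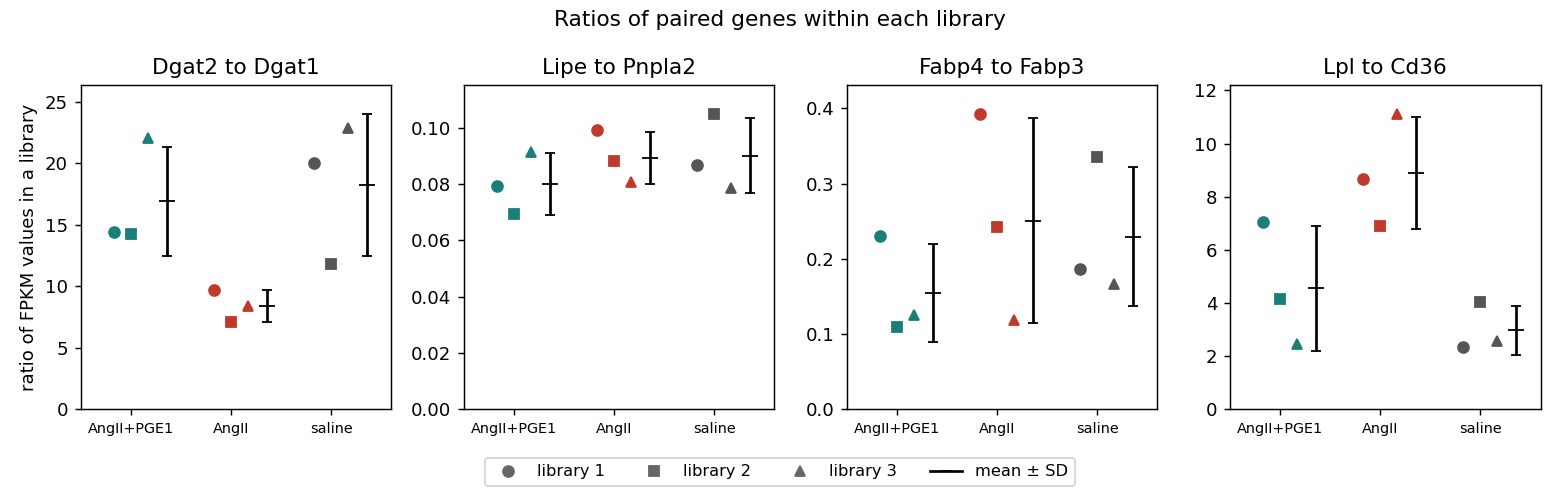
Ratios of 2 of the genes within each library, with groups along the horizontal axis, a marker shape per library number and the mean ± SD (n = 3). The AngII libraries have the lowest Dgat2 to Dgat1 ratios, between 7.06 and 9.68, while the Lipe to Pnpla2 ratios of the groups overlap.

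Plin5 encodes perilipin 5, the lipid droplet coat protein of oxidative tissues that tethers droplets to mitochondria and restrains lipolysis. It was at 46.8, 64.7 and 77.6 FPKM in AngII+PGE1 libraries, 43.9, 35.9 and 38.8 FPKM in AngII libraries and 75.8, 82.1 and 77.6 FPKM in saline libraries. Every AngII library lay below every library of the other groups, and AngII+PGE1 1 was the closest to them.

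Plin5 fell by 49.6% in AngII hearts, to a mean of 39.5 ± 4.02 FPKM against 78.5 ± 3.26 FPKM in saline hearts (SD, n = 3 each; log2 difference -0.98, SE 0.19, limma adjusted p = 0.0411). The AngII+PGE1 mean was 63.1 ± 15.4 FPKM (SD, n = 3). It did not pass against AngII hearts (log2 difference 0.64, SE 0.19, limma adjusted p = 0.0744) or saline hearts (-0.34, SE 0.19, limma adjusted p = 0.9999). As for Cd36, saline 2 was the highest library for Plin5, away from the AngII libraries. With each library left out in turn the AngII difference stayed between -1.05 and -0.91, and its adjusted p, between 0.00997 and 0.204, passed without saline 2 and without AngII+PGE1 1 only. It also missed the threshold when genes of any level were tested (limma adjusted p = 0.0529). Without AngII+PGE1 1 the difference of AngII+PGE1 from AngII hearts was 0.83 (limma adjusted p = 0.0168).

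The stretches upstream of Cd36 and Plin5 are shown because these are the genes that passed. Each holds the 250 bases before a transcription start in RefSeq's table for build GRCm38.p6, which is not the mm9 build named for these data. Both lie on the minus strand, at chr5:17835897-17836146 for Cd36 and chr17:56117549-56117798 for the first of the starts of Plin5 in that table, and read 5′ to 3′ along the gene. Capitals mark the nuclear receptor half-site AGGTCA on either strand and, in Cd36, a direct repeat of it.
Cd36: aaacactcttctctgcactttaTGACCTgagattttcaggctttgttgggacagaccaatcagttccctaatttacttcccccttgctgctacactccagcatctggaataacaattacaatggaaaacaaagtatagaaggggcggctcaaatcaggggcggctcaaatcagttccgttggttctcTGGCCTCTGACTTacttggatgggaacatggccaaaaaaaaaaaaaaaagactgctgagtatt
Plin5: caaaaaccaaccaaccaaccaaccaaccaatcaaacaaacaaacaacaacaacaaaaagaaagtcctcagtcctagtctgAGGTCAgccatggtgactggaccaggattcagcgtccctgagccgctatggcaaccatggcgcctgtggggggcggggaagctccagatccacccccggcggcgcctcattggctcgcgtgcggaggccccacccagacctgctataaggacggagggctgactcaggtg
An exact half-site stands once in each, as 14.0% of the 32851 windows of this length in the table hold at least 1. The repeat searched for was a pair of AGGTCA copies in the same direction with 1 base between them, on both strands, with up to 2 of the 12 letters different; it is the form that PPAR and RXR dimers bind, and it contains the half-site. Cd36 has a match with 2 differences on the opposite strand that ends 50 bases before the start, and 3.24% of all windows have one. Of 10 windows for the 6 genes of the set that the table holds (Cd36, Fabp3, Slc27a1, Pnpla2, Lipe and Plin5), it was the only match. A match is a description of the letters and not a bound site.

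The lipases of the droplet surface close the pathway. Pnpla2 encodes adipose triglyceride lipase, which removes the first fatty acid from triglyceride. It was at 292, 270.2 and 286 FPKM in AngII+PGE1 libraries, 195, 164 and 241 FPKM in AngII libraries and 266, 277 and 253 FPKM in saline libraries. The AngII libraries were the lowest and overlapped with neither group. The AngII mean was 24.6% below saline without passing (log2 difference -0.42, SE 0.17, limma adjusted p = 0.111), and the AngII+PGE1 mean was 1.41 times that of AngII without passing (0.51, SE 0.17, limma adjusted p = 0.0863). Pnpla2 passed for AngII+PGE1 vs AngII with saline 2 and AngII+PGE1 1 both left out (0.49, limma adjusted p = 0.0432). The AngII+PGE1 difference from saline was 0.09 (95% interval -0.28 to 0.46).

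Lipe encodes hormone-sensitive lipase, which acts mainly on diacylglycerol. It was at 23.2, 18.7 and 26.1 FPKM in AngII+PGE1 libraries, 19.3, 14.4 and 19.5 FPKM in AngII libraries and 23.1, 29.0 and 19.95 FPKM in saline libraries. The AngII libraries lay below all saline libraries, by 19.5 against 19.95 FPKM at the closest, and overlapped with the AngII+PGE1 libraries. No comparison passed, with limma adjusted p-values of 0.237 for AngII+PGE1 vs AngII (0.34) and 0.157 for AngII vs saline (-0.41). The ratio of Lipe to Pnpla2 averaged 0.0800 ± 0.0110 in AngII+PGE1, 0.0893 ± 0.00915 in AngII and 0.0901 ± 0.0133 in saline libraries (SD, n = 3 each), and the groups overlapped. In the RefSeq annotation Lipe overlaps a long noncoding RNA gene and Fabp3 overlaps Zcchc17. Whether the authors' counting used strand is not given, so reads of these pairs may be shared.

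Over the 10 genes, AngII vs saline had 2 that fell and 8 that did not pass. Of all genes tested 1.8% fell and 1.31% rose in this comparison, and 3.11% passed in either direction. At an unadjusted p under 0.05, 4 of the 10 were lower and none was higher, beside 18.1% lower and 17% higher of all genes (35% in either direction). Libraries did not overlap for 5 that were lower in AngII hearts (Cd36, Pnpla2, Lipe, Dgat2 and Plin5) and for none that was higher, where 15.8% of all genes were so placed below saline and 17.9% above it (33.7% in all). The median log2 difference was -0.24 for the 10 genes and 0.0011 for all genes.

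For AngII+PGE1 vs AngII none of the 10 passed limma's adjusted threshold, where 0.403% of all genes did, 0.202% in each direction. At an unadjusted p under 0.05, 4 were higher (Cd36, Pnpla2, Dgat2 and Plin5) and none lower, beside 13.1% higher and 20.5% lower of all genes (33.6% in either direction). Libraries did not overlap for 5 that were higher, these 4 and Slc27a1, and for Fabp3, which was lower, where 16.3% of all genes were so placed above AngII and 19.7% below it (36.1% in all). The median log2 difference was 0.39 for the 10 genes and -0.08 for all genes. This comparison and AngII vs saline share the AngII libraries, so opposite signs in the pair are no independent evidence.

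For AngII+PGE1 vs saline none of the 10 passed, either at the adjusted threshold (0.0168% of all genes) or at an unadjusted p under 0.05 (4.23% of all genes, 1.12% higher and 3.12% lower). Cd36 was the only one whose libraries did not overlap, lower in AngII+PGE1 hearts, where 7.89% of all genes were so placed, 2.3% were above saline and 10.2% lay apart in either direction. The median log2 difference was 0.09 for the 10 genes and -0.07 for all genes.

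Without saline 2 and AngII+PGE1 1 together, 6 of the 10 genes passed for AngII+PGE1 vs AngII: Cd36, Pnpla2, Dgat2 and Plin5 were higher and Lpl and Fabp4 lower. For AngII vs saline 5 passed: Cd36, Dgat2 and Plin5 were lower and Lpl and Dgat1 higher. Many other genes passed as well, 44.9% of those tested for AngII+PGE1 vs AngII (18.1% higher, 26.8% lower) and 49.1% for AngII vs saline (24.2% higher, 24.9% lower). The libraries left out were picked because they lay near AngII in expression, so these calls are no independent support. For AngII+PGE1 vs saline none of the 10 passed in that setting, where 0.162% of all genes did (0.034% higher, 0.128% lower). Saline 2 lay beyond the other saline libraries towards the AngII mean for 6 of the genes (Lpl, Fabp3, Fabp4, Slc27a1, Dgat1 and Dgat2) and beyond them away from it for 4 (Cd36, Pnpla2, Lipe and Plin5).

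The genes most like the pair that passed were sought among 2023 others with an SD of at least 0.5 over the 9 libraries on the log2(FPKM + 1) scale. Likeness was the root mean squared difference over the 9 libraries, with each gene centred on its own mean. The SD of Cd36 itself was 0.36 and that of Plin5 0.47, both under that minimum, so genes of as small a spread were not compared and the distances are to be read beside those SDs. Nearest to Cd36 were Sqor, a mitochondrial sulfide oxidase (0.25), Atp5f1, a subunit of ATP synthase (0.25), and Uqcrfs1, the iron-sulfur protein of respiratory complex III (0.25). Nearest to Plin5 were Klhdc7a (0.23), Cpt2, which completes the entry of fatty acids into mitochondria (0.24), and Dlst, of the oxoglutarate dehydrogenase complex (0.24).

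Other genes of the same pathway were followed in 3 lists. The first holds 15 partners of uptake and activation, of which 14 were tested (Slc27a6 was too low). For AngII vs saline 2 of them fell, none rose and 12 did not pass, where 1.8% of all genes fell and 1.31% rose. At an unadjusted p under 0.05, 5 were lower and 1 higher, beside 18.1% lower and 17% higher of all genes. Angptl4, a secreted inhibitor of lipoprotein lipase, was at 1.22, 2.46 and 2.80 FPKM in AngII+PGE1 libraries, 4.48, 4.64 and 2.52 FPKM in AngII libraries and 11.5, 9.24 and 10.9 FPKM in saline libraries. Both treated groups lay below all saline libraries, saline 2 included. Its log2 difference was -1.27 for AngII vs saline (SE 0.25, limma adjusted p = 0.0411, or 0.0570 with no filter) and -1.90 for AngII+PGE1 vs saline, which did not pass (SE 0.25, limma adjusted p = 0.0583). The unadjusted limma p for AngII+PGE1 vs saline was 1.47e-05, in a comparison where 0.0168% of all genes passed the adjusted threshold. With single libraries left out, Angptl4 passed there in 2 of 9 settings (limma adjusted p between 0.0320 and 0.401).

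Acsl1, the main acyl-CoA synthetase of the heart, was at 171, 266 and 359 FPKM in AngII+PGE1 libraries, 102, 114 and 111 FPKM in AngII libraries and 343, 177 and 364 FPKM in saline libraries. The AngII libraries were the lowest and overlapped with neither group, while AngII+PGE1 1 and saline 2 were the lowest of theirs. Acsl1 fell in AngII relative to saline hearts (log2 difference -1.36, SE 0.32, limma adjusted p = 0.0495), a call that was lost with median-ratio scaling (0.0547), a pseudocount of 0.1 (0.0510) or no filter (0.0691). It did not pass for AngII+PGE1 vs AngII (1.21, SE 0.32, limma adjusted p = 0.0624). With single libraries left out, the Angptl4 and Acsl1 calls for AngII vs saline passed in 2 of 9 settings each, without saline 2 and without AngII+PGE1 1. For AngII+PGE1 vs AngII, Acsl1 passed in 2 of 9 settings (limma adjusted p between 0.0170 and 0.217). With all 9 libraries, none of the 14 genes passed by limma in the other comparisons. At an unadjusted p under 0.05, 4 were higher and 3 lower in AngII+PGE1 than in AngII hearts, and 2 lower in AngII+PGE1 than in saline hearts. Of all genes 13.1% were higher and 20.5% lower at that threshold in the first of these comparisons, and 3.12% were lower in the second. The median log2 difference of the list was -0.01 for AngII+PGE1 vs AngII, -0.17 for AngII+PGE1 vs saline and -0.28 for AngII vs saline. Fabp5, the epidermal fatty acid binding protein gene, was the next by p for AngII+PGE1 vs AngII (-0.998, limma adjusted p = 0.0866) and vs saline (-0.82, limma adjusted p = 0.9999). With single libraries left out it passed vs AngII in 3 of 9 settings.

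The second list holds 16 genes of glycerolipid synthesis up to diacylglycerol, of which 13 were tested (Gpat2, Mogat1 and Mogat2 were too low). With all 9 libraries none passed by limma in any comparison. At an unadjusted p under 0.05, 2 were lower for AngII+PGE1 vs AngII, 1 for AngII+PGE1 vs saline and 4 for AngII vs saline, and none was higher. The shares of all genes that were lower were 20.5%, 3.12% and 18.1% in the same order. The list's median log2 differences were 0.20, -0.11 and -0.20 in the same order. Lpin1, a phosphatidate phosphatase, was at 26.3, 44.6 and 43.4 FPKM in AngII+PGE1 libraries, 26.6, 26.9 and 26.4 FPKM in AngII libraries and 58.5, 35.8 and 56.5 FPKM in saline libraries. The AngII libraries lay below all saline libraries (log2 difference -0.86, SE 0.24, limma adjusted p = 0.0657), and AngII+PGE1 1 lay slightly below them. With single libraries left out, Lpin1 passed for AngII vs saline in 2 of 9 settings (limma adjusted p between 0.00763 and 0.268). Gpam, the mitochondrial glycerol phosphate acyltransferase, differed by -0.42 (limma adjusted p = 0.107). For AngII+PGE1 vs AngII the smallest p-values were those of Lpin3 (-0.74, limma adjusted p = 0.0630) and Agpat4 (-0.61, limma adjusted p = 0.114). With single libraries left out, Lpin3 passed there in 2 of 9 settings and Agpat4 in 1 of 9. For AngII+PGE1 vs saline the smallest p-values were those of Lpin3 (-0.52) and Lpin1 (-0.39), with a limma adjusted p of 0.9999 each.

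The third list holds 16 genes of the droplet coat, droplet assembly and lipolysis, of which 14 were tested (the adipocyte genes Plin1 and Cidec were too low). With all 9 libraries none passed by limma in any comparison. At an unadjusted p under 0.05, 2 were higher and 1 lower for AngII+PGE1 vs AngII, 1 was lower for AngII+PGE1 vs saline and 2 were lower for AngII vs saline. Of all genes 13.1% were higher and 20.5% lower for AngII+PGE1 vs AngII, 3.12% were lower for AngII+PGE1 vs saline and 18.1% for AngII vs saline. The list's median log2 differences were 0.08, -0.06 and -0.05 in the same order. Fitm2, which drives the budding of droplets from the endoplasmic reticulum, was at 27.4, 52.3 and 67.2 FPKM in AngII+PGE1 libraries, 14.9, 13.4 and 15.7 FPKM in AngII libraries and 65.8, 24.1 and 73.2 FPKM in saline libraries. The AngII libraries lay below all others, and AngII+PGE1 1 and saline 2 were the closest to them. Its log2 difference was 1.58 for AngII+PGE1 vs AngII (SE 0.41, limma adjusted p = 0.0632) and -1.67 for AngII vs saline (SE 0.41, limma adjusted p = 0.0546). With single libraries left out, Fitm2 passed in 2 of 9 settings in each of these comparisons (lowest limma adjusted p 0.0170 and 0.00361). Plin2, the general droplet coat gene, differed by -0.54 for AngII vs saline (limma adjusted p = 0.0862) and passed in 1 of 9 such settings. Pnpla3, a lipase-like gene at 1.46 FPKM or less, differed by -0.48 for AngII+PGE1 vs AngII (limma adjusted p = 0.136) and -0.53 vs saline, and Cidea, a droplet fusion gene, by 0.38 vs saline (limma adjusted p = 0.9999 for both).

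**Figure D4:**
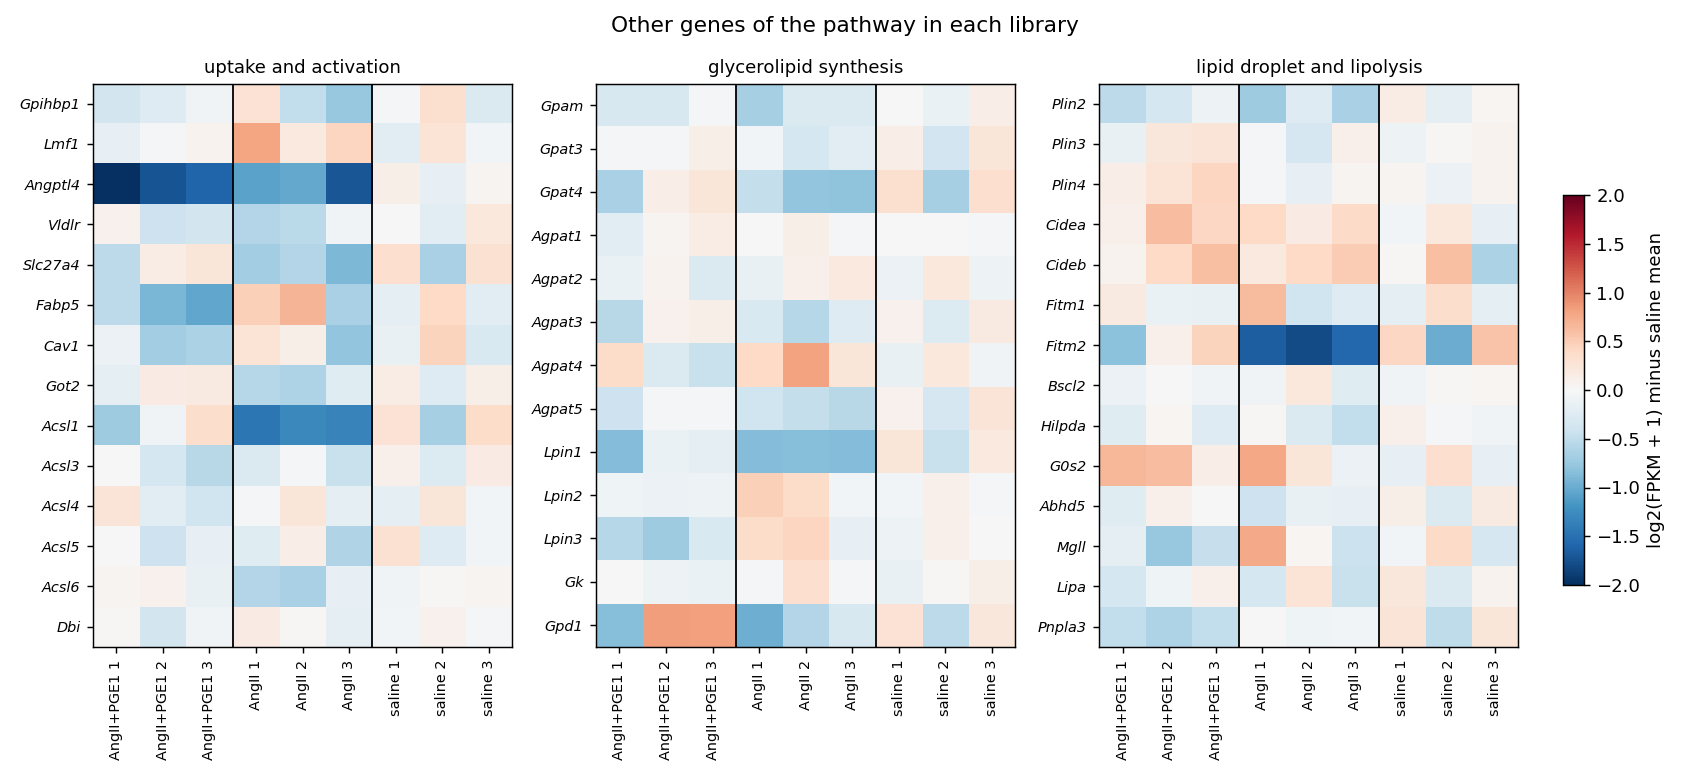
Level of each tested gene of the 3 pathway lists in each library, as log2(FPKM + 1) minus the mean of the saline libraries, with libraries along the horizontal axis and groups parted by black lines. Acsl1 and Fitm2 are lowest in the AngII libraries, and Angptl4 is below saline in all 6 treated libraries.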

How the data were processed

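A single table with the gene levels of all 9 libraries was deposited. Its values are the authors' FPKM, scaled for transcript length and library size. The table is described as FPKM per gene, and the sums were used as a check: plain column sums differed 1.26-fold and length-weighted sums 1.09-fold. The plain sums were larger in the AngII libraries, AngII+PGE1 1 and saline 2 (612409 to 680885) than in the remaining libraries (539083 to 586122). The part of this split in the differences between groups was not tested. The tools named are RSEM 1.2.12, Bowtie2 2.2.5 and HISAT2 2.0.4, with build mm9, per the submitters' processing notes, which state no role. The authors' deposited log2 ratios were not used. FPKM hold no counts, so depth is unknown here and no count model was fitted.

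Column names give the group and a number of their own (2, 3 and 4 for AngII+PGE1, 1, 2 and 3 for AngII, 1, 2 and 4 for saline), which is not the labels' replicate number; libraries are numbered 1 to 3 in column order. Genes that reached 1 FPKM in 3 or more libraries entered 1 limma model (3.58.1, R 4.3.3) of log2(FPKM + 1) over all 9 libraries, with a variance trend and Benjamini-Hochberg adjustment over all genes (threshold 0.05). The pseudocount of 1 understates changes of low genes. The script was tested on simulated data. Ratios used exact permutation tests (scipy 1.17.1). Members and lists were chosen with earlier results of these data known. The text names all 10 members, each pathway gene past the threshold, and otherwise the 2 of smallest p in a list and comparison. Marker lists not described elsewhere were those of fibroblasts and of skeletal muscle. Fibroblast markers summed to 387 to 454 FPKM in AngII+PGE1 libraries, 500.05 to 1309 FPKM in AngII libraries and 458 to 518 FPKM in saline libraries. None of these 7 markers passed by limma. For AngII vs saline 3 had a positive log2 difference, Col1a1 (1.54), Col1a2 (1.41) and Dcn (0.37). The other 4 had a negative one, Tcf21 (-0.45), Pdgfra (-0.41), Dpt (-0.31) and Lum (-0.04). Skeletal muscle markers summed to 1801 to 4710 FPKM in AngII+PGE1 libraries, 3340 to 3884 FPKM in AngII libraries and 2556 to 2902 FPKM in saline libraries. Of that list's 7 genes Myh1, Myh2 and Myh4 did not exceed 0.08 FPKM, and 2 were tested and did not pass by limma: Ckm, at 1240 to 2310 FPKM, and Acta1, at 121 to 2758 FPKM, both also expressed in heart muscle. Alternatives were a fit to only the 2 groups compared, leaving out single libraries, leaving out saline 2 and AngII+PGE1 1 together, no filter, 5 FPKM, a pseudocount of 0.1, median-ratio scaling, quantile normalization and, chosen after seeing the data, the column number as a block.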

Additional observations from a re-analysis of the deposited data

How the results depend on the processing

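The labels' replicate numbers could not be tied to columns. A fit with the number in the column names as a block, chosen after seeing the data, called 0 genes in each comparison with 3 residual degrees of freedom (2942, 250 and 2930 at an unadjusted p under 0.05 for AngII+PGE1 vs AngII, AngII+PGE1 vs saline and AngII vs saline), and neither Cd36 (limma adjusted p = 0.108) nor Plin5 (0.108) passed for AngII vs saline. Of the 6 same-numbered pairs of libraries 2 had deviations from their group means that correlated above 0.1 (range -0.32 to 0.71), and 3 of 9 libraries correlated best with one of their own number. The 2 were AngII+PGE1 1 with saline 2 (0.71) and AngII+PGE1 3 with saline 3 (0.55), while the 21 pairs of unlike number reached 0.63 at most. With AngII 2, AngII+PGE1 1 was at -0.28 and saline 2 at -0.32. The number was not taken as a pairing, and whether it marks a batch was not tested. With each library left out in turn, the genes called numbered 0 to 3193 for AngII+PGE1 vs AngII, 0 to 23 for AngII+PGE1 vs saline and 0 to 4512 for AngII vs saline, and of the 10 genes 0 to 4, 0 and 0 to 4 were called. Without saline 2 and AngII+PGE1 1 together the counts were 5279, 19 and 5768, with 6, 0 and 5 of the 10 genes. With the compared groups only they were 918, 1 and 383, and without a filter 6, 0 and 88, where Cd36 was the 1 gene of the 10 still called. Median-ratio scaling gave 245 for AngII+PGE1 vs AngII and quantile normalization 593 for AngII vs saline, against 48, 2 and 370 as reported in the 3 comparisons. For the 10 genes, 434 of the values under the other alternatives kept their direction and side of the threshold, 19 newly passed, 15 no longer passed and 12 changed sign, none of these a called value. Only Cd36 and Plin5 for AngII vs saline had calls to lose, so all 15 losses were theirs. Each of the 2 was lost in 7 of the 9 settings with a single library left out. Fabp3 changed sign with quantile normalization (0.046 for AngII+PGE1 vs AngII, -0.026 for AngII vs saline), Lipe for AngII+PGE1 vs saline with median-ratio scaling (0.014) and without both libraries (0.041), and Slc27a1 for AngII vs saline without both (0.18). With single libraries left out, the differences for AngII+PGE1 vs saline ranged from -0.12 to 0.60 for Lpl, -0.20 to 0.063 for Lipe and -0.019 to 0.34 for Dgat2, and for AngII vs saline from -0.048 to 0.78 for Fabp4 and -0.23 to 0.18 for Slc27a1. Log2 ratio differences ranged from -0.37 to 0.11 for Dgat2 to Dgat1 (AngII+PGE1 vs saline), and for AngII vs saline from -0.10 to 0.11 for Lipe to Pnpla2 and -0.36 to 0.50 for Fabp4 to Fabp3. The cause was not tested. With 3 libraries a group, precision is limited. The limma SE of a gene rests on 1 spread over all 9 libraries, drawn towards the trend over genes.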
